A study of Mus musculus with 6 samples.

Results

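The genes described here are 41 genes of mitosis and the mitotic spindle, chosen by name from the 24493 genes of a deposited expression table and grouped by role into kinases and cyclins (10), checkpoint and anaphase-promoting complex genes (7), kinesins (6), centromere and kinetochore genes (6), cytokinesis genes (4) and genes of spindle assembly and chromosomes (8). RNA sequencing was done on 6 libraries of mouse pancreatic tumour cells of the C57BL/6 strain, called KPCY. In the usual naming, such cells come from tumours of a mouse model with a pancreatic Cre and carry a yellow fluorescent reporter. All 6 libraries came from cells transduced with a short hairpin RNA: 2 with shNT, a hairpin with no target, and 2 with each of a pair of hairpins, called hairpin 1 and hairpin 2, that target Pthlh, which encodes parathyroid hormone-related protein. Their condition is given as sorting of tumour cells grown in vivo, while the protocols mention DMEM culture, and the sources used here do not say which preceded RNA extraction. A pair of parental clones is mentioned for the series, with no statement of the clone behind each library. Whether replicates were separate cultures or mice is not stated, and p-values therefore reflect only the spread among these libraries, which may be technical.

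Values are in TPM, a transcript abundance corrected for length and scaled to the same total in each library. All 41 genes passed the filter on low values, which asked for 1 TPM or more in no fewer than 2 libraries, as did 11549 genes in all. Pthlh itself read 0.752 and 0.966 TPM in shNT, 0 and 0.106 in the hairpin 1 libraries, and 0.0423 and 0.263 in those of hairpin 2, so all 4 hairpin libraries lay below both controls, at levels under the filter. A single short entry, Mir6236, took 34.1% and 24.3% of the TPM in shNT and 19.7% to 23.4% in the hairpin libraries. TPM is a share of the library, so the values of all other genes move with that entry, and the results are also given after other scalings. Ccnb1, Ccnb2, Kif4 and Kif22 have a pseudogene of the same name in GENCODE, and 13 of the 41 genes overlap another gene, so their values may hold shared reads. Of the 7 markers of ductal tumour epithelium, 6 passed the filter, with a sum of 3759 to 4456 TPM. The summed markers of other cells stayed low: 0.968 to 3.60 TPM for neutrophils, 0.383 to 0.690 for lymphocytes, 0.388 to 0.612 for fibroblasts, 0.0282 to 0.141 for endothelium and 1.07 to 2.31 for erythroid cells. The myeloid sum of 62.0 to 78.9 TPM was almost all Cd14, while Adgre1, C1qa and Tyrobp were listed at 0 in every library, as were Cd3e and Cd3g of lymphocytes, Lum of fibroblasts, and Emcn and Cldn5 of endothelium.

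Mitosis is driven by the kinase Cdk1 bound to a B-type or A-type cyclin, which switches on the Aurora and Polo-like kinases and the assembly of the spindle from microtubules. The spindle checkpoint holds the anaphase-promoting complex, a ubiquitin ligase, in check until every chromosome is attached through its kinetochore, after which the cyclins are destroyed and the cell divides. Most of these genes are transcribed late in the cell cycle, through promoter elements known as the cell cycle homology region (CHR) and the CCAAT box, which are read by the DREAM, B-Myb and FoxM1 complexes and by NF-Y. In bulk RNA, fewer dividing cells and less RNA per dividing cell cannot be told apart.

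The promoters were searched for those elements. RefSeq promoter windows (build GRCm38.p6, 250 bases before to 50 after the start of the gene) matched 36 of the 41 genes. No window was matched for Ccna2, Aurkb, Tpx2, Kif20a and Cdc25c. The letters searched were TTTGAA and TTCGAA for the CHR and CCAAT for the CCAAT box, on both strands, where a CHR match and a CCAAT match may share end letters. The 120 bases just before the start are shown for 7 genes, picked after the matches were seen as examples with CHR or CCAAT letters in these bases, 5′ to 3′ on the strand of the gene, with capitals marking the CHR letters and the CCAAT letters or the reverse complement of either.
Cdk1: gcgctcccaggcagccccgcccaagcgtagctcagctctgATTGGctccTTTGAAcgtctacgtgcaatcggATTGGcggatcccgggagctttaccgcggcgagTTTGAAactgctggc
Ccnb2: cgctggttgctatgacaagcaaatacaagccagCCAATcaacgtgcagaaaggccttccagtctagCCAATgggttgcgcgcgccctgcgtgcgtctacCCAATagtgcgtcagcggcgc
Cdc20: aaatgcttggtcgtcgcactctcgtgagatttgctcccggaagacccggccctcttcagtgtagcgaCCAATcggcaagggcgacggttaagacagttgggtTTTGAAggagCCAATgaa
Ube2c: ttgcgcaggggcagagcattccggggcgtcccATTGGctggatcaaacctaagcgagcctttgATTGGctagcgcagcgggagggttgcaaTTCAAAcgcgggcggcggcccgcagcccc
Kif22: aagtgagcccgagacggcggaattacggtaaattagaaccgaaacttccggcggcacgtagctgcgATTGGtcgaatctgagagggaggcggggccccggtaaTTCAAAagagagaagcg
Top2a: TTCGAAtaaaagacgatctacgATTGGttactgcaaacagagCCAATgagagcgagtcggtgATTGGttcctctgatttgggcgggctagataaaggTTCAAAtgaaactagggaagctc
Ckap5: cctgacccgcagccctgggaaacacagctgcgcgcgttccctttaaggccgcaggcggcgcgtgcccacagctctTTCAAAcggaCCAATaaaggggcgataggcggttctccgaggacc
The stretches lie at chr10:69352913-69353032 (Cdk1, minus strand), chr9:70421555-70421674 (Ccnb2, minus strand), chr4:118437344-118437463 (Cdc20, minus strand), chr2:164769809-164769928 (Ube2c, plus strand), chr7:127042421-127042540 (Kif22, minus strand), chr11:99024190-99024309 (Top2a, minus strand) and chr2:91526642-91526761 (Ckap5, plus strand). Ccnb2 has 3 CCAAT boxes in this stretch, at positions -87, -54 and -21, each 33 bases from the next. Cdk1 has CHR letters at -71 and -15 on the strand of the gene, and Ube2c and Ckap5 have them on the opposite strand at -29 and -45.

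**Figure D1:**
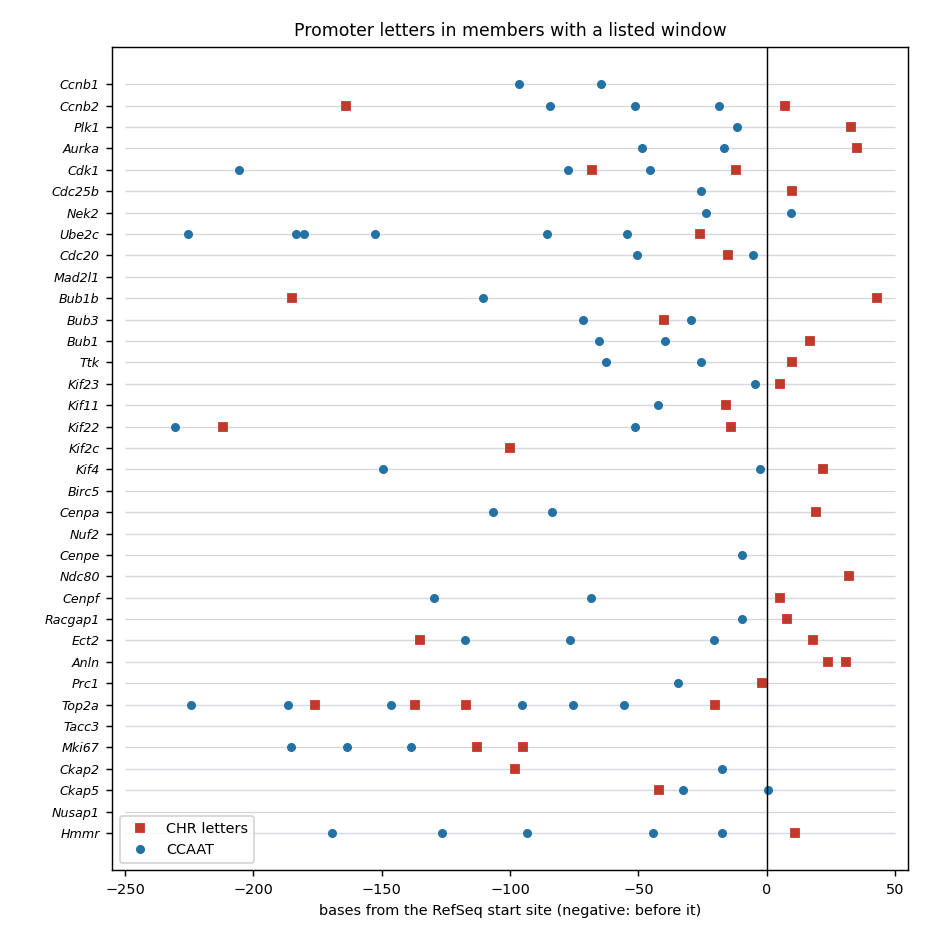
Position of CHR letters (squares) and CCAAT letters (circles), in bases from the RefSeq start site, in the promoter window of each of the 36 mitosis and spindle genes with one; each symbol marks the middle of a match on either strand. Squares lie near the start site in 26 of the 36 genes, and circles mostly lie before it.

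CHR letters from 100 bases before to 50 after the start were found in 26 of the 36 genes (72.2%) and in 8.56% of all 27025 windows. CCAAT letters anywhere in the window were found in 28 of the 36 (77.8%), against 37.9% of all windows. At least 2 CCAAT boxes before the start were found in 18 of the 36 (50%) and in 10.6% of all windows. The 24 genes with both CHR letters near the start and a CCAAT box made up 66.7% of the 36, against 3.45% of all windows. These matches describe the sequence and are not binding sites, and the 24 genes were called in both directions by the test described next: with hairpin 1, 10 were higher, 8 lower and 6 did not pass. Of the 12 genes whose window lacks that pair, 3 were higher, 2 lower and 7 did not pass, and of all tested genes 32.1% were higher and 18.1% lower.

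In the control cells these genes spanned a wide range of levels. Ube2c, the ubiquitin-conjugating enzyme of the anaphase-promoting complex, was the most abundant at 460.4 ± 22.2 TPM (SD, n = 2), followed by Ccnb1, cyclin B1, at 168 ± 15.3 TPM. Cdc20, the activator of that complex, stood at 139 ± 6.76 TPM, Ccna2 (cyclin A2) at 138 ± 0.52 TPM and Birc5 (survivin) at 136 ± 3.68 TPM, and these levels did not differ from each other beyond their spread. At the other end were Cdc25c, a phosphatase that activates Cdk1, at 18.04 ± 0.413 TPM, Ttk, the checkpoint kinase Mps1, at 17.1 ± 0.932 TPM, and Kif4, a chromosome-bound kinesin, at 15.5 ± 1.17 TPM. Kif4 read 16.3 and 14.6 TPM in shNT, 17.6 and 17.4 in the hairpin 1 libraries, and 15.5 and 15.3 in those of hairpin 2, and its hairpin libraries did not all lie on one side of the controls. The summed TPM of all 41 genes came to 3219 and 3262 in the controls, to 3273 and 3243 in the hairpin 1 libraries and to 3499 and 3581 for hairpin 2. The hairpin 1 sums lay within or just above the control range and both hairpin 2 sums above it, a sum to which Ube2c contributes most. Small-RNA entries such as Mir6236 took 35.3% and 25.5% of the TPM in shNT, and 21.0% to 24.9% in the hairpin libraries. The sums were not rescaled without those entries, so their order between groups holds only for TPM as deposited.

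**Figure D2:**
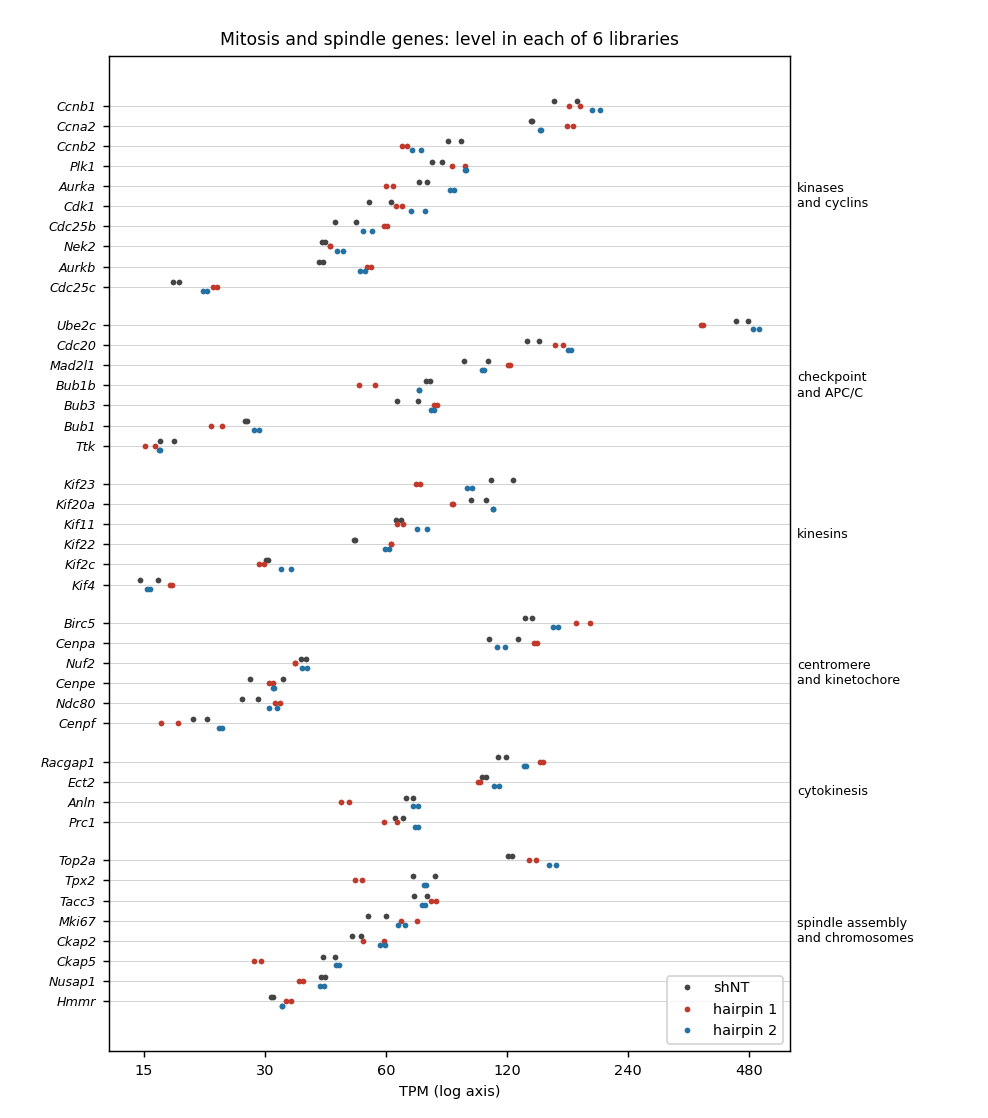
TPM of each of the 41 genes in each of the 6 libraries, on a log axis, ordered within role by the level in shNT; colours mark shNT, hairpin 1 and hairpin 2. Ube2c is highest in every library, and the spread between genes is much larger than the difference between groups.

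Differences between groups are given on the log2(TPM + 1) scale with the standard error of the limma model, which held the 3 group means over all 6 libraries, and with p-values adjusted over the 11549 genes (threshold 0.05). Both hairpins are compared with the same 2 control libraries. The median over all tested genes was 0.11 for hairpin 1 and 0.09 for hairpin 2, and differences relative to it are given beside each result. With hairpin 1, 28 of the 41 genes passed: 16 were higher than in shNT and 12 lower. Of all tested genes 50.2% passed in this comparison, 32.1% higher and 18.1% lower, while of the 41 it was 39.0% higher and 29.3% lower. The median of the 41 was 0.07, a little under that of all genes. With hairpin 2, 7 of the 41 passed, 6 higher and 1 lower, beside 9.63% of all genes (6.62% higher and 3% lower), with a median of 0.13. Hairpin 2 minus hairpin 1 gave 16 genes higher and 3 lower, beside 40.1% of all genes (19.9% higher and 20.2% lower). For the mean of both hairpins against shNT, 14 were higher and 6 lower, beside 39.4% of all genes (27.3% higher and 12.1% lower). Both hairpin 1 libraries lay above both controls for 21 of the 41 genes and below both for 16, beside 48.8% and 28.1% of all genes. For hairpin 2 it was 28 above and 3 below, beside 45.5% and 16.3% of all genes. A position above both controls was thus common among all genes. The share with every hairpin library above both controls was not counted.

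The number of genes called higher depended on how the libraries were scaled. After median-ratio scaling, which brings the median gene of every library to the same level, the split with hairpin 1 was 7 higher and 17 lower, and of all genes 22.7% higher and 24.3% lower. With small-RNA entries such as Mir6236 removed and the rest rescaled, 1 gene was higher and 12 were lower with hairpin 1, beside 14.6% and 24.3% of all genes. In the same setting 0 were higher and 1 lower with hairpin 2 (2 higher and 2 lower at an unadjusted p under 0.05 in limma), beside 1.27% and 3.12% of all genes. With hairpin 2 the median-ratio split was 2 higher and 2 lower, beside 2.11% and 4.8% of all genes. For the mean of both hairpins the split became 7 higher and 11 lower after median-ratio scaling, beside 15.1% and 18.7% of all genes. Without small-RNA entries it was 0 higher and 7 lower (2 higher and 11 lower at an unadjusted p under 0.05 in limma), beside 8.29% and 16.7% of all genes. The split of hairpin 2 minus hairpin 1 stayed at 16 higher and 3 lower after median-ratio scaling, beside 20.3% and 19.5% of all genes. Without small-RNA entries it was 10 higher and 1 lower (17 higher and 2 lower at an unadjusted p under 0.05 in limma). The share of all genes was not counted for that setting and comparison. Nor was it counted with 1 library left out, so those counts cannot be told apart from a change over all genes. The median of the 41 genes with hairpin 2 was 0.12 to 0.14 with any one of the 4 hairpin libraries left out. Leaving out 1 library also moved the counts: higher with hairpin 1 fell to 6 without hairpin 1 replicate 1 and to 7 without hairpin 1 replicate 2 or either hairpin 2 library, and lower with hairpin 1 fell to 7 without hairpin 1 replicate 2. With hairpin 2, no gene passed in either direction without any one of the 4 hairpin libraries (10 to 20 higher and 1 or 2 lower at an unadjusted p under 0.05 in limma), and 15 were higher and 2 lower without shNT replicate 2. In all 17 alternative settings, 7 calls of hairpin 1 against shNT held: the falls of Ccnb2, Bub1b, Kif23, Anln, Tpx2 and Ckap5, and the rise of Birc5.

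**Figure D3:**
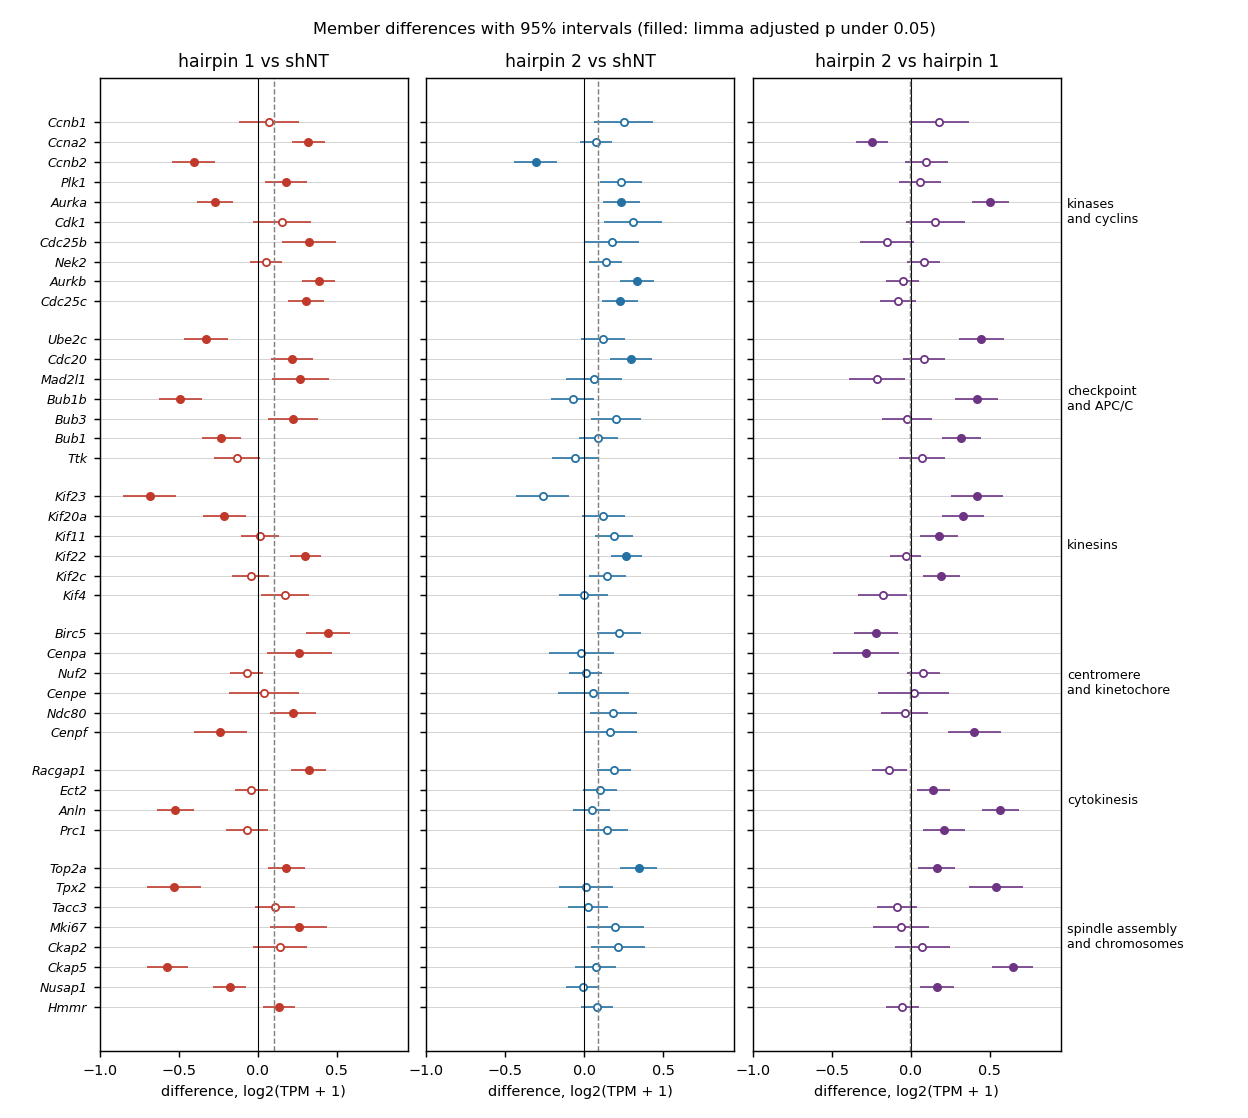
Difference on the log2(TPM + 1) scale for each of the 41 genes, grouped by role, for hairpin 1 against shNT, hairpin 2 against shNT and hairpin 2 against hairpin 1; bars are 95% intervals of the limma model, filled points passed an adjusted p of 0.05, and the dashed line is the median of all tested genes. The falls of Kif23, Ckap5, Tpx2, Anln and Bub1b with hairpin 1 are the largest among the 41, and the same genes lie closer to 0 with hairpin 2.

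Among the kinases and cyclins, the B-type cyclin Ccnb2 was the only one of the 41 genes that fell with both hairpins, while Ccna2, Aurkb, Plk1, Cdc25b and Cdc25c rose with hairpin 1. Ccnb2 read 85.5 and 92.1 TPM in shNT, 65.8 and 67.5 in the hairpin 1 libraries, and 69.6 and 73.4 in those of hairpin 2. It fell by 0.41 ± 0.05 with hairpin 1 (-0.51 relative to the median gene, limma adjusted p = 0.00264) and fell by 0.31 ± 0.05 with hairpin 2 (-0.40 relative to the median gene, limma adjusted p = 0.0326). All hairpin libraries lay below both controls, and the call held in all 17 alternatives with hairpin 1, while with hairpin 2 it was lost without any one of the 4 hairpin libraries (limma adjusted p 0.0833 to 0.181). The other B-type cyclin, Ccnb1, read 157 and 179 TPM in shNT, 182 and 171 in the hairpin 1 libraries, and 195 and 204 in those of hairpin 2 and did not pass (0.07 ± 0.08 with hairpin 1 and 0.25 ± 0.08 with hairpin 2). Ccna2, cyclin A2, which acts from S phase into mitosis, read 138 and 137 TPM in shNT, 175 and 169 in the hairpin 1 libraries, and 145 and 145 in those of hairpin 2. It rose by 0.32 ± 0.04 with hairpin 1 (0.22 relative to the median gene, limma adjusted p = 0.00221) and was lower with hairpin 2 than with hairpin 1, with a difference of -0.24 ± 0.04 (limma adjusted p = 0.00727). Without small-RNA entries neither the rise (0.14, limma adjusted p = 0.233) nor the difference between hairpins (-0.20, limma adjusted p = 0.121) passed. The latter call was lost without hairpin 1 replicate 1 or either hairpin 2 library (limma adjusted p 0.0571 to 0.0657).

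Aurka, the Aurora kinase of centrosomes and spindle poles, was the only gene called in opposite directions by the hairpins. It read 72.5 and 75.7 TPM in shNT, 59.98 and 62.5 in the hairpin 1 libraries, and 86.4 and 88.3 in those of hairpin 2. It fell by 0.27 ± 0.05 with hairpin 1 (-0.38 relative to the median gene, limma adjusted p = 0.00576) and rose by 0.23 ± 0.05 with hairpin 2 (0.15 relative to the median gene, limma adjusted p = 0.0403). The 3 groups did not overlap, and the hairpin libraries lay on either side of the controls. The difference of hairpin 2 minus hairpin 1, which uses no control, was 0.50 ± 0.05 (limma adjusted p = 0.00113) and passed in all 17 alternatives, at 0.22 (limma adjusted p = 0.017) after chromosome centring. The difference with hairpin 1 was 0.0058 once each chromosome was centred (described further on), and the rise with hairpin 2 was lost without shNT replicate 1 or any hairpin library (limma adjusted p 0.0564 to 0.212). The Aurka rise with hairpin 2 also did not pass after median-ratio scaling (0.14, limma adjusted p = 0.131) or quantile normalization (0.13, limma adjusted p = 0.147). Nor did it pass after chromosome centring (0.23, limma adjusted p = 0.0594) or without small-RNA entries (0.10, limma adjusted p = 0.583). Aurkb, the Aurora kinase of the chromosomal passenger complex, read 40.96 and 41.9 TPM in shNT, 55.1 and 53.7 in the hairpin 1 libraries, and 53.3 and 51.6 in those of hairpin 2. It rose by 0.38 ± 0.04 with hairpin 1 (0.28 relative to the median gene, limma adjusted p = 0.00142) and by 0.33 ± 0.04 with hairpin 2 (0.25 relative to the median gene, limma adjusted p = 0.0203). All 4 hairpin libraries lay above both controls. The rise with hairpin 2 was lost without any one of the hairpin libraries (limma adjusted p 0.0644 to 0.155), and neither call held without small-RNA entries.

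Cdc25b and Cdc25c, phosphatases that remove the inhibitory phosphates of Cdk1, were above the controls in every hairpin library. Cdc25b read 50.5 and 44.8 TPM in shNT, 60.4 and 59.2 in the hairpin 1 libraries, and 52.4 and 55.3 in those of hairpin 2. It rose by 0.32 ± 0.07 with hairpin 1 (0.22 relative to the median gene, limma adjusted p = 0.0112), a call lost without either hairpin 1 library (limma adjusted p 0.0543 to 0.0658). Cdc25c read 18.3 and 17.7 TPM in shNT, 22.3 and 22.8 in the hairpin 1 libraries, and 20.99 and 21.5 in those of hairpin 2. It rose by 0.31 ± 0.05 with hairpin 1 (0.20 relative to the median gene, limma adjusted p = 0.0036) and by 0.23 ± 0.05 with hairpin 2 (0.14 relative to the median gene, limma adjusted p = 0.0423), and the latter was lost without shNT replicate 1 or any hairpin library (limma adjusted p 0.0522 to 0.218). Plk1, the Polo-like kinase of centrosomes and kinetochores, read 82.4 and 78.1 TPM in shNT, 87.6 and 94.1 in the hairpin 1 libraries, and 94.4 and 94.6 in those of hairpin 2. It rose by 0.18 ± 0.05 with hairpin 1 (0.07 relative to the median gene, limma adjusted p = 0.0391), a call lost when any library other than shNT replicate 1 was left out (limma adjusted p 0.0579 to 0.203). Its difference was -0.0013 without small-RNA entries, where the median of all tested genes was -0.06. Cdk1 read 54.5 and 61.6 TPM in shNT, 65.8 and 63.4 in the hairpin 1 libraries, and 69.3 and 74.98 in those of hairpin 2, above both controls in each hairpin library. It passed only for the mean of both hairpins, at 0.23 ± 0.06 (limma adjusted p = 0.0366), a call lost when any library other than shNT replicate 2 was left out (limma adjusted p 0.0596 to 0.104). None of the rises of these 4 genes held without small-RNA entries. Nek2, a kinase that separates centrosomes, passed in no comparison, at 0.05 with hairpin 1 and 0.13 with hairpin 2.

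The checkpoint and anaphase-promoting complex genes split with hairpin 1: Bub1, Bub1b and Ube2c fell, and Bub3, Mad2l1 and Cdc20 rose. Bub1b, which encodes BubR1 of the mitotic checkpoint complex, read 77.1 and 75.2 TPM in shNT, 56.4 and 51.5 in the hairpin 1 libraries, and 72.3 and 72.5 in those of hairpin 2. It fell by 0.49 ± 0.05 with hairpin 1 (-0.60 relative to the median gene, limma adjusted p = 0.00144) and lay 0.42 ± 0.05 (limma adjusted p = 0.00327) higher with hairpin 2 than with hairpin 1. The hairpin 1 libraries were well below all others. Bub1, the kinase that recruits checkpoint proteins to kinetochores, read 26.7 and 26.99 TPM in shNT, 23.5 and 22 in the hairpin 1 libraries, and 28.2 and 29.04 in those of hairpin 2. It fell by 0.23 ± 0.05 with hairpin 1 (-0.34 relative to the median gene, limma adjusted p = 0.0127), a call lost without hairpin 1 replicate 2 (limma adjusted p = 0.0769), and lay 0.32 ± 0.05 (limma adjusted p = 0.00571) higher with hairpin 2. Ube2c read 445 and 476 TPM in shNT, 368 and 364 in the hairpin 1 libraries, and 491 and 508 in those of hairpin 2. It fell by 0.33 ± 0.06 with hairpin 1 (-0.43 relative to the median gene, limma adjusted p = 0.0057), lost without hairpin 1 replicate 2 (limma adjusted p = 0.0518), and lay 0.45 ± 0.06 (limma adjusted p = 0.00286) higher with hairpin 2. After chromosome centring none of these differences between the hairpins passed, with Bub1 at 0.04 (limma adjusted p = 0.572), Bub1b at 0.14 (limma adjusted p = 0.0972) and Ube2c at 0.16 (limma adjusted p = 0.0572). For Bub1 and Ube2c alike, hairpin 1 lay below the controls and hairpin 2 above them.

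The rises in this group were smaller. Bub3, which carries Bub1 and BubR1 to kinetochores, read 63.9 and 71.9 TPM in shNT, 78.7 and 80.2 in the hairpin 1 libraries, and 77.4 and 78.8 in those of hairpin 2. It rose by 0.23 ± 0.06 with hairpin 1 (0.12 relative to the median gene, limma adjusted p = 0.031). Mad2l1, which encodes the Mad2 inhibitor of Cdc20, read 93.5 and 108 TPM in shNT, 120.4 and 122 in the hairpin 1 libraries, and 104 and 105 in those of hairpin 2. It rose by 0.27 ± 0.07 with hairpin 1 (0.17 relative to the median gene, limma adjusted p = 0.0248), and hairpin 2 overlapped the controls. Cdc20 read 134 and 144 TPM in shNT, 158 and 165 in the hairpin 1 libraries, and 169.9 and 173 in those of hairpin 2. It rose by 0.21 ± 0.05 with hairpin 1 (0.11 relative to the median gene, limma adjusted p = 0.02) and by 0.30 ± 0.05 with hairpin 2 (0.21 relative to the median gene, limma adjusted p = 0.0326), with all hairpin libraries above both controls. Each of these calls was lost without any one of the 4 hairpin libraries (limma adjusted p 0.0644 to 0.137 for Bub3, limma adjusted p 0.0539 to 0.113 for Mad2l1, limma adjusted p 0.0504 to 0.126 for Cdc20 with hairpin 1 and limma adjusted p 0.0824 to 0.19 with hairpin 2), and after median-ratio scaling. Ttk passed in no comparison (-0.13 ± 0.06 with hairpin 1 and -0.06 ± 0.06 with hairpin 2).

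The kinesins, motors that move along spindle microtubules, held the largest single change. Kif23, the motor of the central spindle that is needed for cytokinesis, read 124 and 109 TPM in shNT, 72.7 and 71.3 in the hairpin 1 libraries, and 95.3 and 98.2 in those of hairpin 2. It fell by 0.68 ± 0.07 with hairpin 1 (-0.79 relative to the median gene, limma adjusted p = 0.000952), to 61.8% of the control mean, and lay 0.42 ± 0.07 (limma adjusted p = 0.00594) higher with hairpin 2 than with hairpin 1. The hairpin 2 libraries also lay below both controls, at -0.26 ± 0.07 (limma adjusted p = 0.0643), which did not pass. Kif20a, which also acts at the central spindle, read 106 and 97.4 TPM in shNT, 87.5 and 88.04 in the hairpin 1 libraries, and 111 and 111 in those of hairpin 2. It fell by 0.21 ± 0.05 with hairpin 1 (-0.32 relative to the median gene, limma adjusted p = 0.0217), a call lost without any one of the 4 hairpin libraries (limma adjusted p 0.0528 to 0.107), and lay 0.33 ± 0.05 (limma adjusted p = 0.00629) higher with hairpin 2. Kif22, a kinesin that binds chromosomes, read 49.8 and 50.1 TPM in shNT, 61.8 and 61.6 in the hairpin 1 libraries, and 59.5 and 61.1 in those of hairpin 2. It rose by 0.30 ± 0.04 with hairpin 1 (0.19 relative to the median gene, limma adjusted p = 0.00244) and by 0.27 ± 0.04 with hairpin 2 (0.18 relative to the median gene, limma adjusted p = 0.0252). The 4 hairpin libraries lay close together and above both controls, and neither call held without small-RNA entries or after chromosome centring. With hairpin 2 the Kif22 call was lost without any one of the hairpin libraries (limma adjusted p 0.075 to 0.161).

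Kif11, the motor that pushes spindle poles apart, and Kif2c, which takes microtubules apart at their ends, passed only between the hairpins. Kif11 read 63.6 and 65.2 TPM in shNT, 65.96 and 63.9 in the hairpin 1 libraries, and 71.5 and 75.9 in those of hairpin 2. Hairpin 2 lay 0.18 ± 0.05 (limma adjusted p = 0.0331) above hairpin 1. Kif2c read 30.6 and 30.2 TPM in shNT, 29.02 and 29.8 in the hairpin 1 libraries, and 32.9 and 34.7 in those of hairpin 2. Hairpin 2 lay 0.19 ± 0.05 (limma adjusted p = 0.0246) above hairpin 1. Both calls were lost without any one of the 4 hairpin libraries (limma adjusted p 0.0699 to 0.182 for Kif11 and limma adjusted p 0.0621 to 0.143 for Kif2c). Kif4 passed in no comparison (0.17 ± 0.06 with hairpin 1 and -0.0047 ± 0.06 with hairpin 2).

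Of the centromere and kinetochore genes, Birc5 rose most. Birc5, survivin, a member of the chromosomal passenger complex with Aurkb, read 133 and 138 TPM in shNT, 177 and 192 in the hairpin 1 libraries, and 156 and 160.4 in those of hairpin 2. It rose by 0.44 ± 0.06 with hairpin 1 (0.34 relative to the median gene, limma adjusted p = 0.00212), and was lower with hairpin 2 than with hairpin 1, with a difference of -0.22 ± 0.06 (limma adjusted p = 0.0267). Hairpin 1 lay highest and the controls lowest. The difference between hairpins was lost without hairpin 1 replicate 2 or either hairpin 2 library (limma adjusted p 0.0986 to 0.153). Cenpa, the histone H3 variant of centromeres, read 108 and 127 TPM in shNT, 139.7 and 142 in the hairpin 1 libraries, and 113 and 119 in those of hairpin 2. It rose by 0.26 ± 0.08 with hairpin 1 (0.16 relative to the median gene, limma adjusted p = 0.0436) and was lower with hairpin 2 than with hairpin 1, with a difference of -0.28 ± 0.08 (limma adjusted p = 0.0428). Both Cenpa calls were lost without any one of the 4 hairpin libraries (limma adjusted p 0.077 to 0.164 and limma adjusted p 0.115 to 0.187), and its control libraries stood further apart than either hairpin pair.

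Cenpf, a large kinetochore protein, read 21.5 and 19.8 TPM in shNT, 18.3 and 16.5 in the hairpin 1 libraries, and 23.1 and 23.5 in those of hairpin 2. It fell by 0.24 ± 0.07 with hairpin 1 (-0.34 relative to the median gene, limma adjusted p = 0.0321) and lay 0.40 ± 0.07 (limma adjusted p = 0.00725) higher with hairpin 2 than with hairpin 1. Hairpin 1 lay below the controls and hairpin 2 above them. The fall was lost without shNT replicate 1, hairpin 1 replicate 2 or either hairpin 2 library (limma adjusted p 0.0648 to 0.153), and the difference between hairpins held in all 17 alternatives. Ndc80, which binds the kinetochore to microtubules, read 26.3 and 28.8 TPM in shNT, 32.7 and 31.8 in the hairpin 1 libraries, and 30.7 and 32.1 in those of hairpin 2. It rose by 0.22 ± 0.06 with hairpin 1 (0.12 relative to the median gene, limma adjusted p = 0.0253), a call lost when any library other than shNT replicate 2 was left out (limma adjusted p 0.0504 to 0.123). Its partner Nuf2 did not pass (-0.07 ± 0.04 with hairpin 1 and 0.01 ± 0.04 with hairpin 2), nor did the kinetochore motor Cenpe (0.04 ± 0.09 with hairpin 1 and 0.06 ± 0.09 with hairpin 2).

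The 4 cytokinesis genes did not move together. Anln, anillin, a scaffold of the contractile ring, read 69.97 and 67.2 TPM in shNT, 48.6 and 46.4 in the hairpin 1 libraries, and 69.8 and 71.9 in those of hairpin 2. It fell by 0.52 ± 0.05 with hairpin 1 (-0.63 relative to the median gene, limma adjusted p = 0.00078) and lay 0.57 ± 0.05 (limma adjusted p = 0.00087) higher with hairpin 2 than with hairpin 1. The hairpin 1 libraries lay far below the other 4, which overlapped. Racgap1, the partner of Kif23 in the centralspindlin complex, went the other way. It read 119 and 114 TPM in shNT, 147 and 145 in the hairpin 1 libraries, and 133 and 132 in those of hairpin 2. It rose by 0.32 ± 0.04 with hairpin 1 (0.22 relative to the median gene, limma adjusted p = 0.00276), with all hairpin libraries above both controls, a call that did not hold without small-RNA entries or after quantile normalization. Ect2, the exchange factor that activates RhoA at the division plane, read 104 and 106 TPM in shNT, 103 and 102 in the hairpin 1 libraries, and 111 and 115 in those of hairpin 2. Prc1, which bundles the microtubules of the central spindle, read 65.96 and 63.05 TPM in shNT, 63.9 and 59.3 in the hairpin 1 libraries, and 70.8 and 71.99 in those of hairpin 2. Both passed only between the hairpins, with hairpin 2 higher by 0.14 ± 0.04 (limma adjusted p = 0.0433) for Ect2 and by 0.21 ± 0.05 (limma adjusted p = 0.0273) for Prc1. The Ect2 call was lost without any one of the 4 hairpin libraries (limma adjusted p 0.125 to 0.223), and the Prc1 call without hairpin 1 replicate 2 or either hairpin 2 library (limma adjusted p 0.109 to 0.149).

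Among the genes of spindle assembly and chromosomes, Ckap5, Tpx2 and Nusap1 fell with hairpin 1, and Top2a, Hmmr and Mki67 rose. Ckap5, a microtubule polymerase, read 44.7 and 41.8 TPM in shNT, 29.4 and 28.1 in the hairpin 1 libraries, and 45.9 and 45.1 in those of hairpin 2. It fell by 0.57 ± 0.05 with hairpin 1 (-0.68 relative to the median gene, limma adjusted p = 0.000744), to 66.4% of the control mean, and lay 0.65 ± 0.05 (limma adjusted p = 0.000755) higher with hairpin 2 than with hairpin 1. Tpx2, which activates Aurka on spindle microtubules, read 79.4 and 69.9 TPM in shNT, 50.1 and 52.4 in the hairpin 1 libraries, and 75.3 and 74.6 in those of hairpin 2. It fell by 0.53 ± 0.07 with hairpin 1 (-0.64 relative to the median gene, limma adjusted p = 0.00225) and lay 0.54 ± 0.07 (limma adjusted p = 0.00295) higher with hairpin 2. For both, hairpin 1 stood far below the other 4 libraries. Nusap1, a protein that cross-links spindle microtubules, read 42.3 and 41.2 TPM in shNT, 36.3 and 37.3 in the hairpin 1 libraries, and 41.96 and 40.99 in those of hairpin 2. It fell by 0.18 ± 0.04 with hairpin 1 (-0.28 relative to the median gene, limma adjusted p = 0.018), lost without either hairpin 1 library (limma adjusted p 0.0672 to 0.107), and lay 0.17 ± 0.04 (limma adjusted p = 0.0274) higher with hairpin 2, lost without any one of the 4 hairpin libraries (limma adjusted p 0.0946 to 0.154).

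Top2a, the topoisomerase that untangles sister chromatids, read 124 and 120.4 TPM in shNT, 141 and 136 in the hairpin 1 libraries, and 152 and 158 in those of hairpin 2. It rose by 0.18 ± 0.05 with hairpin 1 (0.08 relative to the median gene, limma adjusted p = 0.0244) and by 0.34 ± 0.05 with hairpin 2 (0.26 relative to the median gene, limma adjusted p = 0.0225), with all hairpin libraries above both controls and hairpin 2 highest. Hairpin 2 lay 0.16 ± 0.05 (limma adjusted p = 0.0411) above hairpin 1. All 3 calls were lost without any one of the 4 hairpin libraries (limma adjusted p 0.0527 to 0.148, limma adjusted p 0.0673 to 0.155 and limma adjusted p 0.107 to 0.219). Mki67, which encodes the proliferation marker Ki-67, read 60.1 and 54.2 TPM in shNT, 71.8 and 65.3 in the hairpin 1 libraries, and 64.3 and 66.8 in those of hairpin 2. It rose by 0.26 ± 0.07 with hairpin 1 (0.15 relative to the median gene, limma adjusted p = 0.03), lost without shNT replicate 2, hairpin 1 replicate 1 or either hairpin 2 library (limma adjusted p 0.0583 to 0.152), and was at 0.20 ± 0.07 (limma adjusted p = 0.131) with hairpin 2, which did not pass. Hmmr, a spindle-associated protein, read 31.4 and 31.1 TPM in shNT, 34.8 and 33.9 in the hairpin 1 libraries, and 33.1 and 33.03 in those of hairpin 2. It rose by 0.13 ± 0.04 with hairpin 1 (0.03 relative to the median gene, limma adjusted p = 0.0403), lost without any one of the 6 libraries (limma adjusted p 0.0565 to 0.188). Its difference was -0.041 without small-RNA entries, where the median of all tested genes was -0.06. The rises of Top2a and Mki67 with hairpin 1 were also lost after median-ratio scaling. Tacc3 and Ckap2, both microtubule-binding, passed in no comparison (0.11 ± 0.05 with hairpin 1 and 0.02 ± 0.05 with hairpin 2 for Tacc3; 0.14 ± 0.07 with hairpin 1 and 0.21 ± 0.07 with hairpin 2 for Ckap2).

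The genes that fell with hairpin 1 were gathered on a pair of chromosomes. Of the 12, 7 lie on chromosome 2 (Aurka, Bub1, Bub1b, Ube2c, Tpx2, Nusap1 and Ckap5) and 3 on chromosome 9 (Ccnb2, Kif23 and Anln), with Kif20a on chromosome 18 and Cenpf on chromosome 1. Chromosome 2 holds 8 of the 41 genes, and only Cdc25b, which rose, went against the others there. Chromosome 9 holds 4, of which Ttk did not pass. The other tested genes of these chromosomes were lower too. With hairpin 1 the 904 other genes of chromosome 2 had a median of -0.27, with 53.0% called lower and 6.08% higher. The 640 of chromosome 9 had a median of -0.13, with 33.4% lower. Low medians were not limited to these chromosomes. Chromosome 16, which holds none of the 41 genes, had a median of -0.21 with 45.9% lower. Chromosome 19, which holds Kif11, had a median of -0.07 with 30.3% lower. With hairpin 2 the median was 0.01 on chromosome 2 and -0.10 on chromosome 9.

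**Figure D4:**
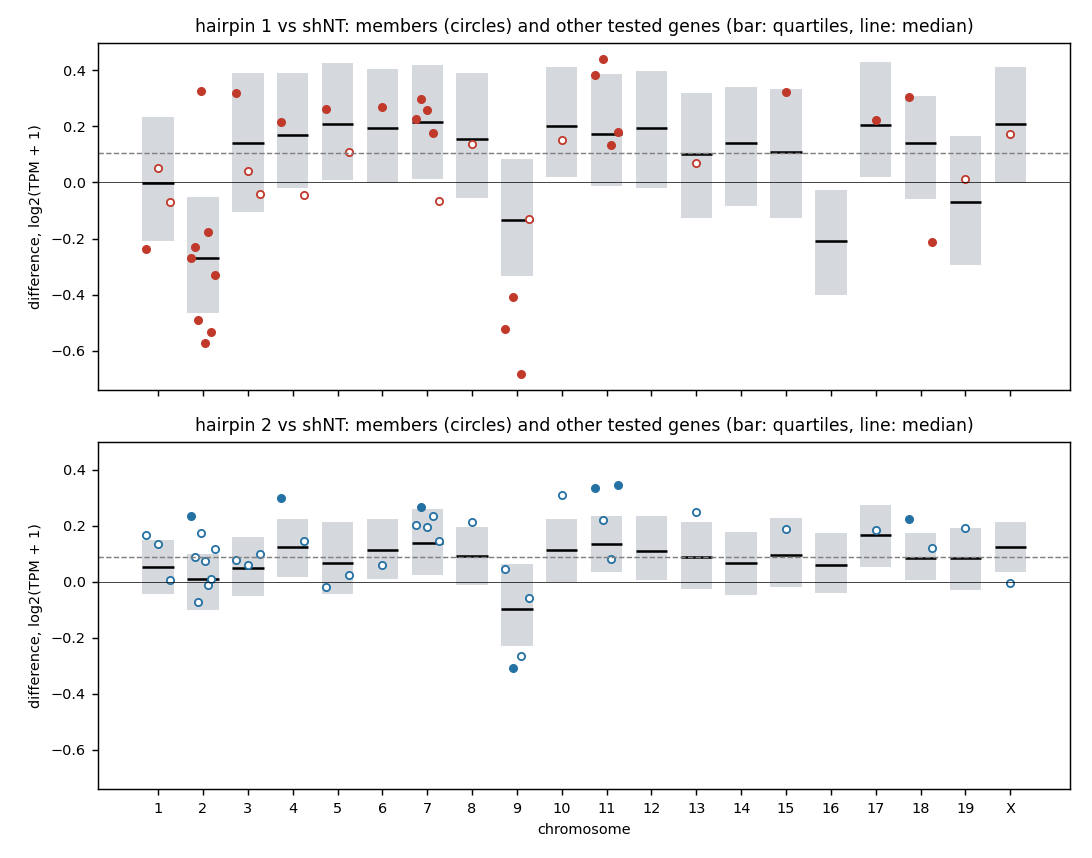
Difference of each of the 41 genes from shNT on the log2(TPM + 1) scale (circles, filled where the limma adjusted p was under 0.05) by chromosome, for hairpin 1 (top) and hairpin 2 (bottom); grey bars span the quartiles of the other tested genes of the chromosome, black lines their median, and the dashed line is the median of all tested genes. On chromosome 2 the black line lies at -0.27 with hairpin 1 and at 0.01 with hairpin 2.

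Over the 41 genes, the difference with hairpin 1 and the median of the other genes on the same chromosome had a Pearson r of 0.73 and a Spearman rho of 0.64, and with hairpin 2 an r of 0.72 and a rho of 0.64. These are descriptions across genes of the same 6 libraries, in which genes of a chromosome share one median. With hairpin 1, 35 of the 41 genes lay on the same side of the median of all genes as their chromosome did, and 28 with hairpin 2. Against the median of genes within 5 Mb, r was 0.74 and rho 0.68 with hairpin 1, and r was 0.69 and rho 0.57 with hairpin 2. On the side of the median of all genes taken by those neighbours lay 34 of the 41 genes with hairpin 1 and 23 with hairpin 2.

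After the values of each library were centred on the median of each chromosome, 11 of the 41 genes were lower with hairpin 1 and 6 higher, beside 20.6% and 20.2% of all genes. Ccnb2, Bub1b, Kif23, Kif20a, Cenpf, Anln, Tpx2 and Ckap5 were still lower, but those of chromosome 2 by less: Bub1b went from -0.49 to -0.22, Tpx2 from -0.53 to -0.26 and Ckap5 from -0.57 to -0.30. Kif23 stood at -0.55, Anln at -0.39, Ccnb2 at -0.27 and Cenpf at -0.25, while Kif20a went from -0.21 to -0.34. Ect2, Kif2c and Prc1 passed in addition, at -0.17, -0.21 and -0.27. The other 4 genes of chromosome 2 that had fallen no longer passed, with Aurka at 0.0058, Bub1 at 0.045, Ube2c at -0.05 and Nusap1 at 0.10. Ccna2, Aurkb, Cdc25b, Cdc25c, Birc5 and Racgap1 were still higher. Cdc25b went from 0.32 to 0.60. The other 5 became smaller: Ccna2 was at 0.19, Aurkb at 0.21, Cdc25c at 0.18, Birc5 at 0.27 and Racgap1 at 0.22. The median of all tested genes also moved, from 0.11 as deposited to 0.0058 after centring. Relative to the median gene, Ccna2 had stood at 0.22 before centring, Aurkb at 0.28, Cdc25c at 0.20, Birc5 at 0.34 and Racgap1 at 0.22. Kif20a had stood at -0.32 on that scale. With hairpin 2, no gene passed after this centring (9 higher and 1 lower at an unadjusted p under 0.05 in limma), beside 1.56% higher and 2.97% lower of all genes. Between the hairpins 11 were higher with hairpin 2 and 3 lower, beside 17.5% and 17.5% of all genes. Bub1, Bub1b, Ube2c, Kif11, Nusap1 and Cenpa lost their calls there, Cdc25b was lower in addition, and Tpx2 went from 0.54 to 0.26 and Ckap5 from 0.65 to 0.36.

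For the mean of both hairpins, 4 genes were higher and 2 lower after chromosome centring, beside 12.3% and 13.9% of all genes. Ccnb2 and Kif23 were the lower ones, and Aurkb, Cdc25b, Cdc25c and Birc5 the higher ones. Before centring, the mean of both hairpins differed from shNT by -0.36 ± 0.05 (limma adjusted p = 0.00467) for Ccnb2 and by -0.47 ± 0.06 (limma adjusted p = 0.00363) for Kif23. The corresponding rises were 0.36 ± 0.04 (limma adjusted p = 0.00243) for Aurkb, 0.25 ± 0.06 (limma adjusted p = 0.0226) for Cdc25b, 0.27 ± 0.04 (limma adjusted p = 0.00622) for Cdc25c and 0.33 ± 0.05 (limma adjusted p = 0.00598) for Birc5. The Cdc25b call was lost without any one of the 4 hairpin libraries (limma adjusted p 0.0521 to 0.0735). When the 4 hairpin libraries were pooled as 1 group, so that the difference between hairpins counted as spread, none of the 41 genes passed (13 higher and 2 lower at an unadjusted p under 0.05 in limma), and 1 gene of all 11549 did, a lower one (0.00866%; 0% higher).

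**Figure D5:**
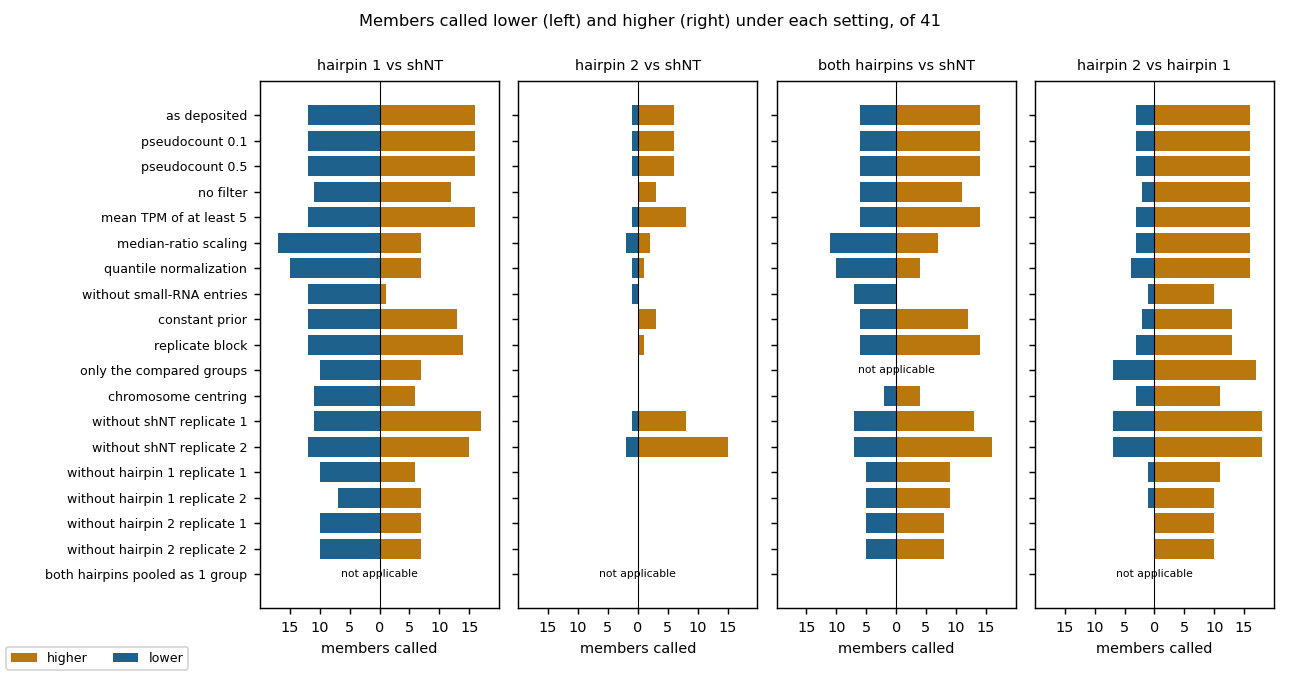
Number of the 41 genes called higher (right) and lower (left) in each of 4 comparisons, as deposited and under each other scaling, filter, model or left-out library. With hairpin 1 the count of rises goes from 16 to 1 when small-RNA entries are removed, while the count of falls stays at 12. Over all tested genes the same step takes the share higher from 32.1% to 14.6% and the share lower from 18.1% to 24.3%.

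Other genes of the same machinery were described from lists of 164 genes, of which 161 were tested. With hairpin 1, 63 were higher and 19 lower, with a median of 0.13 against 0.11 over all genes, while hairpin 2 gave 24 higher and 4 lower, beside 6.62% and 3% of all genes. After median-ratio scaling the counts were 38 higher and 30 lower with hairpin 1, beside 22.7% and 24.3% of all genes, and 6 higher and 4 lower with hairpin 2, beside 2.11% and 4.8%. By list, with hairpin 1, 8 of 23 regulators of mitotic transcription rose and 2 fell, 7 of 13 genes of the mitotic entry switch rose and 2 fell, and 7 of 15 of the anaphase-promoting complex rose and 1 fell. Of other checkpoint genes 6 of 13 rose and 1 fell, of other centromere and kinetochore genes 13 of 29 rose and 2 fell, and of other mitotic kinesins 2 of 7 rose and 1 fell. Cohesin and condensin gave 8 of 21 higher and 2 lower, centrosomes and spindle poles 9 of 28 higher and 5 lower, and other cytokinesis genes 3 of 12 in each direction. These shares sit beside 32.1% of all genes higher and 18.1% lower.

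The largest of these changes was that of Rb1, the retinoblastoma protein that restrains E2F factors, at 5.48 ± 0.0579 TPM (mean ± SD) in shNT, 14.8 ± 0.485 with hairpin 1 and 7.32 ± 0.265 with hairpin 2. It rose by 1.28 ± 0.06 with hairpin 1 (limma adjusted p = 0.000121) and by 0.36 ± 0.06 with hairpin 2 (limma adjusted p = 0.0279). The Rb1 call with hairpin 2 did not hold without small-RNA entries. E2f8, an E2F that represses transcription, was at 24.3 ± 0.554 TPM (mean ± SD) in shNT, 30.2 ± 0.687 with hairpin 1 and 29.4 ± 0.0201 with hairpin 2, and rose by 0.30 ± 0.04 with hairpin 1 (limma adjusted p = 0.00333). Tfdp2, a partner of E2F factors, fell with both hairpins and was at 14.98 ± 0.527 TPM (mean ± SD) in shNT, 11.6 ± 0.338 with hairpin 1 and 11.5 ± 0.504 with hairpin 2. In the entry switch, the Cdk1-inhibiting kinase Pkmyt1 was at 25.03 ± 0.0434 TPM (mean ± SD) in shNT, 34.8 ± 1.46 with hairpin 1 and 31.1 ± 1.28 with hairpin 2 and rose by 0.46 ± 0.05 with hairpin 1 (limma adjusted p = 0.00157), and Fzr1, the late-mitotic activator of the anaphase-promoting complex, was at 43.7 ± 0.322 TPM (mean ± SD) in shNT, 59.4 ± 1.96 with hairpin 1 and 54.03 ± 0.0836 with hairpin 2 and rose by 0.43 ± 0.04 with hairpin 1 (limma adjusted p = 0.00102). The E2f8 call did not hold without small-RNA entries or after chromosome centring.

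At the centromere, Cenpm, of the inner kinetochore, was at 13.8 ± 0.485 TPM (mean ± SD) in shNT, 26.5 ± 0.937 with hairpin 1 and 17.97 ± 0.0267 with hairpin 2. It rose by 0.90 ± 0.05 with hairpin 1 (limma adjusted p = 0.000213) and by 0.36 ± 0.05 with hairpin 2 (limma adjusted p = 0.0237). The Cenpm call with hairpin 2 did not hold without small-RNA entries or after chromosome centring. Cenph, of the same network, was at 19.2 ± 1.79 TPM (mean ± SD) in shNT, 34.99 ± 0.513 with hairpin 1 and 26.8 ± 2.24 with hairpin 2 and rose by 0.84 ± 0.08 with hairpin 1 (limma adjusted p = 0.00105). Cdca8, borealin, which joins Birc5 and Aurkb in the passenger complex, was at 73.2 ± 1.41 TPM (mean ± SD) in shNT, 91.1 ± 2.02 with hairpin 1 and 88.3 ± 2.7 with hairpin 2 and rose by 0.31 ± 0.05 with hairpin 1 (limma adjusted p = 0.00333), a call lost without small-RNA entries. Of the spindle and chromosome genes, Haus5, of the augmin complex that branches microtubules, was at 9.84 ± 0.628 TPM (mean ± SD) in shNT, 17.4 ± 0.248 with hairpin 1 and 14.1 ± 0.232 with hairpin 2 and rose by 0.77 ± 0.06 with hairpin 1 (limma adjusted p = 0.000482). Espl1, separase, which cleaves cohesin, was at 19.3 ± 0.234 TPM (mean ± SD) in shNT, 23.7 ± 0.816 with hairpin 1 and 26.4 ± 0.325 with hairpin 2. It rose by 0.28 ± 0.05 with hairpin 1 (limma adjusted p = 0.00506) and by 0.43 ± 0.05 with hairpin 2 (limma adjusted p = 0.0145), and neither call held without small-RNA entries. Stag1, a cohesin subunit, was at 25.9 ± 0.228 TPM (mean ± SD) in shNT, 20.8 ± 0.296 with hairpin 1 and 20.6 ± 0.682 with hairpin 2 and fell by 0.30 ± 0.05 with hairpin 1 (limma adjusted p = 0.00392). Rhoa, the GTPase of the contractile ring, was at 267 ± 9.98 TPM (mean ± SD) in shNT, 210.1 ± 5.73 with hairpin 1 and 210.5 ± 4.75 with hairpin 2. It fell by 0.34 ± 0.05 with hairpin 1 (limma adjusted p = 0.00362) and fell by 0.34 ± 0.05 with hairpin 2 (limma adjusted p = 0.0253). After chromosome centring the hairpin 2 calls of Rhoa, Stag1 and Tfdp2 did not hold (limma adjusted p = 0.0567, 0.0608 and 0.0684). Tfdp2, Stag1 and Rhoa, which were the genes of these lists that fell with both hairpins, lie on chromosome 9, as Ccnb2 does. For the fits with a library left out, given next, the share of all genes was not counted. With hairpin 2, none of the 33 calls of the genes taken from these lists and the S phase list held without hairpin 1 replicate 2 or either hairpin 2 library (limma adjusted p 0.0505 to 0.229), and 1 held without hairpin 1 replicate 1.

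For S phase, 38 genes of DNA replication were described in the same way. With hairpin 1, 23 rose and 1 fell, with a median of 0.24, beside 32.1% of all genes higher and 18.1% lower. With hairpin 2, 11 rose and 0 fell, with a median of 0.18 (23 genes at an unadjusted p under 0.05 in limma), beside 6.62% and 3% of all genes. The split with hairpin 1 was 18 higher and 4 lower after median-ratio scaling (22.7% and 24.3% of all genes), 20 higher and 2 lower after chromosome centring (20.2% and 20.6% of all genes), and 8 higher and 3 lower without small-RNA entries (14.6% and 24.3% of all genes). With hairpin 2 it was 4 higher and 0 lower after median-ratio scaling (13 genes at an unadjusted p under 0.05 in limma), beside 2.11% and 4.8% of all genes. After chromosome centring it was again 4 higher and 0 lower (12 genes at an unadjusted p under 0.05 in limma), beside 1.56% and 2.97%. Without small-RNA entries it was 0 in each direction (5 genes at an unadjusted p under 0.05 in limma), beside 1.27% and 3.12% of all genes. Rfc2, a subunit of the clamp loader, was at 44.7 ± 1.11 TPM (mean ± SD) in shNT, 70.1 ± 1.62 with hairpin 1 and 58.4 ± 2.1 with hairpin 2, and rose by 0.64 ± 0.05 with hairpin 1 (limma adjusted p = 0.000467). Mcm7, of the replicative helicase, was at 165 ± 1.5 TPM (mean ± SD) in shNT, 235 ± 4.34 with hairpin 1 and 202 ± 2.42 with hairpin 2 and rose by 0.51 ± 0.04 with hairpin 1 (limma adjusted p = 0.000599). Lig1, the ligase that joins Okazaki fragments, was at 41.1 ± 2.95 TPM (mean ± SD) in shNT, 69.99 ± 2.73 with hairpin 1 and 51.8 ± 1.11 with hairpin 2 and rose by 0.75 ± 0.06 with hairpin 1 (limma adjusted p = 0.000611). Rrm2, a subunit of ribonucleotide reductase, was at 163 ± 0.052 TPM (mean ± SD) in shNT, 213 ± 5.77 with hairpin 1 and 215 ± 2.62 with hairpin 2. It rose by 0.38 ± 0.04 with hairpin 1 (limma adjusted p = 0.0016), a call lost without small-RNA entries.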

How the data were processed

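The authors deposited a table of TPM for 24493 genes, made with Salmon on the mm10 build, per the submitters' processing notes, which also name R 3.5 and DESeq2 with no role and give no Salmon version. TPM keeps no read number, which leaves the depth per library unknown, and precision rests on the number of libraries. Columns were matched to groups by the sample titles. Values were taken as log2(TPM + 1), which understates the change of genes at low TPM. Genes at 1 TPM or more in 2 or more libraries were tested with limma 3.58.1 in R 4.3.3, with a variance prior that followed mean level and Benjamini-Hochberg adjustment at 0.05. Both hairpins were compared with shNT, singly and as the mean of their group means, and with each other.

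Alternatives were pseudocounts of 0.1 and 0.5, no filter, a mean TPM of at least 5, median-ratio scaling, quantile normalization, removal of small-RNA entries, a constant prior, a replicate block, only the compared groups, pooled hairpins, chromosome centring and leaving out each library. Positions came from GENCODE M21 (same build), which placed 98.8% of tested genes. The descriptions by chromosome median and by genes within 5 Mb were added after the values were seen. Genes named beyond the 41 were up to 3 of each list with the smallest p for both hairpins and those called the same way by each hairpin, and only some are printed with values, a choice made after the values were seen. The 41 genes and the lists were chosen with earlier results of these data known.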

Additional observations from a re-analysis of the deposited data

Results flagged for a closer look

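Aurka was called in opposite directions by the hairpins, lower than shNT with hairpin 1 and higher with hairpin 2, and the hairpins differed by their own test: hairpin 2 minus hairpin 1 was 0.50 on the log2 scale, with a limma adjusted p of 0.00113. The opposite directions did not hold in every setting. With hairpin 1 the difference was 0.0058 after chromosome centring. The hairpin 2 rise did not pass after median-ratio scaling, quantile normalization or chromosome centring, or without small-RNA entries.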

How the results depend on the processing

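Among the 41 genes, those higher with hairpin 1 numbered 16 as deposited, 7 after median-ratio scaling, 7 after quantile normalization, 1 without small-RNA entries, 7 with only the compared groups in the model, 6 after chromosome centring, and 6 to 17 when 1 library was left out. Those lower with hairpin 1 numbered 12 as deposited and 7 to 12 when 1 library was left out, and stayed within 1.5 times the deposited count under every other alternative. With hairpin 2, 6 were higher as deposited, 3 with no filter, 2 after median-ratio scaling, 1 after quantile normalization, 0 without small-RNA entries, 3 with a constant prior, 0 with only the compared groups, 0 after chromosome centring, and 0 to 15 when 1 library was left out. With hairpin 2, 1 was lower as deposited, 0 with no filter, 2 after median-ratio scaling, 0 with a constant prior, 0 with only the compared groups, 0 after chromosome centring, and 0 to 2 when 1 library was left out. At an unadjusted p under 0.05 in limma, the counts for hairpin 2 were 20 higher and 2 lower with only the compared groups, 21 and 2 with no filter, 17 and 2 with a constant prior, 9 and 1 after chromosome centring, and 2 and 2 without small-RNA entries. For both hairpins against shNT, 14 were higher as deposited, 7 after median-ratio scaling, 4 after quantile normalization, 0 without small-RNA entries, 0 with the hairpins pooled, 4 after chromosome centring, and 8 to 16 when 1 library was left out. Lower for both hairpins were 6 as deposited, 11 after median-ratio scaling, 10 after quantile normalization, 0 with the hairpins pooled, 2 after chromosome centring, and 5 to 7 when 1 library was left out. Pooling the hairpins left 13 higher and 2 lower at an unadjusted p under 0.05 in limma, and removing small-RNA entries 2 and 11. With hairpin 2 against hairpin 1, 16 were higher as deposited, 10 without small-RNA entries and 10 to 18 when 1 library was left out, and 3 were lower as deposited, 1 without small-RNA entries, 7 with only the compared groups and 0 to 7 when 1 library was left out. Where a library was left out of a pair, the remaining one was assumed to vary like the other groups. The fit on only the compared groups gives no value for both hairpins, and pooling applies to that comparison alone. The share of all genes, given further up, was counted as deposited, after median-ratio scaling, after chromosome centring and with pooled hairpins. It was also counted without small-RNA entries, except between the hairpins. In the other settings, a change in the counts of these genes cannot be told apart from a change over all genes.

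Single genes changed sign under chromosome centring or removal of small-RNA entries. With hairpin 1, chromosome centring put Aurka at 0.0058, Plk1 at -0.027, Bub1 at 0.045, Nusap1 at 0.10 and Hmmr at -0.037, and removing small-RNA entries put Plk1 at -0.0013 and Hmmr at -0.041. Between the hairpins, chromosome centring put Nusap1 at -0.12. With hairpin 1 the median of all tested genes was 0.11 as deposited, 0.0058 after chromosome centring and -0.06 without small-RNA entries. Plk1 and Hmmr lay above that median both as deposited and without small-RNA entries. The cause of these changes of sign was not tested beyond what each alternative does by construction.

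The labels share only replicate numbers between groups, and same-numbered libraries did not deviate together (correlations of 0.021, 0.015 and -0.044). With the replicate number as a block, 14 genes were higher and 12 lower with hairpin 1, 1 higher and 0 lower with hairpin 2 (20 and 2 at an unadjusted p under 0.05 in limma), 14 higher and 6 lower for both hairpins, and 13 higher and 3 lower between the hairpins. With 2 libraries a group and no read counts, the table gives no measure of counting error, and small differences among the genes that did not pass could not be resolved.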
